A study of Rattus norvegicus with 6 samples.

Results

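Serine, proline and asparagine are amino acids that a cell can build from intermediates of glycolysis and of glutamate metabolism. The genes described here are 10 in number, of 21857 symbols in the count tables. They were chosen by name for their roles, with earlier results of these data known. Phgdh, Psat1 and Psph encode the 3 steps from the glycolytic intermediate 3-phosphoglycerate to serine. Shmt2 and Mthfd2 encode mitochondrial enzymes that turn serine into glycine and a folate-bound one-carbon unit. Aldh18a1 and Pycr1 encode enzymes of the route from glutamate to proline, and Asns makes asparagine from aspartate and glutamine. Atf4 encodes the transcription factor that switches on most of these enzymes when amino acids are short or when the endoplasmic reticulum is stressed, and Trib3 encodes a pseudokinase that is itself an ATF4 target and dampens ATF4 activity. Cells regulate ATF4 largely at translation, through phosphorylation of the initiation factor eIF2. Glycine recurs at regular short intervals all along the collagen triple helix and proline is abundant between, so fibroblasts that secrete collagen need both in quantity.

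To measure mRNA, RNA-seq libraries were made from neonatal rat cardiac fibroblasts (NRCFs), which are primary cells isolated from hearts of rats up to 3 days old. The study names Sprague-Dawley rats, whereas the strain field of the labels reads Noway. The Vector group (genotype label WT) received the empty plasmid and the other group (genotype label FTO overexpression) a plasmid with the coding sequence of rat FTO, an RNA demethylase acting on N6-methyladenosine (m6A), so cells of both groups were transfected. There were 3 libraries in each group, collected after transient transfection. The labels do not say whether the libraries came from separate cultures, so the p-values measure the spread between these libraries only. That spread was unequal. The chi-square of counts per degree of freedom was 1.56 to 2.12 between pairs of Vector libraries. Between pairs of libraries labelled FTO it was 3.26 to 8.02. Total counts ranged from 13178952 to 17857999 per library.

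Fto was at 87.4 to 89.6 CPM (read counts scaled to a common library size with the TMM factors of edgeR) in the Vector libraries and at 90.8 to 93.2 CPM in the libraries labelled FTO. The fold change was 1.05 with a 95% interval of 0.976 to 1.12 and an edgeR quasi-likelihood adjusted p of 0.239, so the counts did not show a rise of the transfected gene by this test, although the values of the groups did not overlap. Each direction below is therefore that of the libraries labelled FTO against Vector. Of 10 fibroblast markers, all were counted in every group, with summed levels of 41030 to 41670 CPM in Vector and 20440 to 21480 CPM in the libraries labelled FTO. Col1a1 and Col3a1 made up most of that sum, with means of 25809 and 10699 CPM in Vector and 8268 and 3338 CPM in the libraries labelled FTO. Of the 10, 6 were lower and 4 (Dcn, Lum, Pdgfra and Thy1) higher. Lower and higher markers are those with an edgeR adjusted p under 0.05. Of all 12941 genes tested, 32.8% were lower and 33.2% higher by that measure. Dcn and Lum, defining markers of the type, were at 47.0 and 48.7 CPM on average in Vector and at 5611 and 432 CPM in the libraries labelled FTO. Macrophage markers summed to 1685 to 1747 CPM in Vector and 238 to 268 CPM in the libraries labelled FTO, where 9 of 10 were lower, 1 (Adgre1) was higher, and C1qb and C1qc were at or under 3 counts in each of those libraries. Mural markers summed to 720 to 736 CPM and 266 to 295 CPM in the same order, with 3 of 5 tested lower and 2 higher. Cardiomyocyte markers summed to 1519 to 1553 CPM in Vector and 2414 to 2509 CPM in the libraries labelled FTO, 7 of 8 being higher and none at 0. Endothelial markers summed to 24.5 to 25.0 CPM and 53.5 to 55.9 CPM, with 4 of 5 tested higher. In these bulk libraries fewer cells of a type and less RNA per cell cannot be told apart, and the part of the other cell types in the results below was not tested.

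To describe the sequence in front of these genes, the RefSeq promoters of the rat build GRCr8 were read. The table held 9 of the 10 genes, the exception being Aldh18a1. They were searched on both strands for TGATGNAA, the core of the element bound jointly by C/EBP and ATF factors, in the window from 250 bases before to 50 bases after each start. Of the 9 promoters, 2 held it, those of Pycr1 and Trib3, against 3.98% of all 33469 promoters. The 250 bases before the start of both are shown because these were the genes with the largest decreases among the 10, with the motif in capitals. In Pycr1 (chr10:106420813-106421062, minus strand) it lay at bases -131 to -124, and in Trib3 (chr3:161275534-161275783, minus strand) it was found as its reverse complement at bases -21 to -14.
Pycr1: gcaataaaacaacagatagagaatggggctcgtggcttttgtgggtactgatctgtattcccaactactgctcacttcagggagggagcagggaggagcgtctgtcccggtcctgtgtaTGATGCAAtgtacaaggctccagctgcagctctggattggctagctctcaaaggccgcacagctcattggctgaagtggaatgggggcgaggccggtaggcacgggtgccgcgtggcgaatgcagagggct
Trib3: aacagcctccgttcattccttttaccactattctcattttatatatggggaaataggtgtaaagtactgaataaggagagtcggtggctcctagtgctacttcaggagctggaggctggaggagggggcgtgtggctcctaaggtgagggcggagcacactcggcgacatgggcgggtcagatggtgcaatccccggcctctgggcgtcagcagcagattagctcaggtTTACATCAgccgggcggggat
A match is a run of letters and not a measured binding site, and the absence of a match covers this window alone. The motif was also found in 6 of the 24 promoters available for 29 other ATF4 target genes. These were those of Chac1, Herpud1, Slc7a1, Slc1a4, Fgf21 and Nupr1, of which Fgf21 and Nupr1 had too few counts to be tested. Promoters without a match included those of Vldlr, Atf5, Slc7a5 and Sesn2, which fell, and of Ddit3, Ddit4 and Stc2, which rose.

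All 9 of the genes that had enough counts to be tested fell in the libraries labelled FTO. Of 12941 genes tested, 65.9% passed at an edgeR adjusted p under 0.05, 33.2% as higher and 32.8% as lower, so a single call is common in these data. At the threshold used by the study, a log2 fold change of at least 1 in size with a p-value under 0.05, 6 of the 9 passed and all 6 were lower. Over all genes tested 19.6% passed it, and 9.27% did so as lower. In each of the 9 the CPM ranges of the groups lay apart, as was the case for 70.3% of all genes tested. The median log2 fold change of the 9 was -1.36, beside 0.00 over all genes tested. Reads of the 8 enzymes together made up 1045 to 1071 CPM in Vector and 472 to 508 CPM in the libraries labelled FTO.

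**Figure D1:**
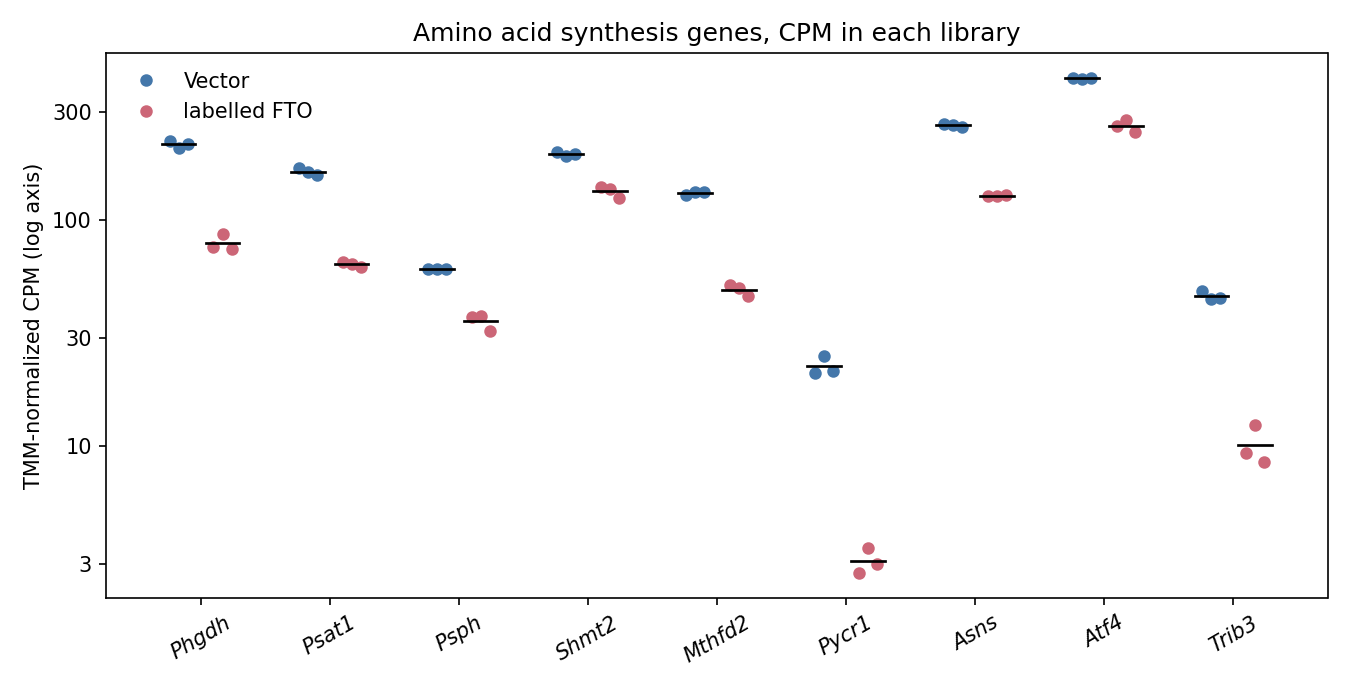
Points show TMM-normalized CPM on a log axis in each of 3 Vector and 3 FTO-labelled libraries for the 9 genes tested, and black lines show group means. In each gene the 3 libraries labelled FTO lie under the 3 Vector libraries, with the widest gap in Pycr1, from 22.6 to 3.10 CPM.

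The serine pathway was described first. Phgdh encodes phosphoglycerate dehydrogenase, the entry step that draws 3-phosphoglycerate out of glycolysis. It was at 224, 209 and 217 CPM in Vector replicates 1, 2 and 3 and at 76.4, 86.8 and 74.2 CPM in the libraries labelled FTO. The lowest Vector library was thus well above the highest FTO-labelled one, FTO replicate 2. The means were 217 ± 7.58 and 79.2 ± 6.75 CPM (SD, n = 3 libraries each), a log2 change of -1.46 (SE 0.0575, edgeR adjusted p = 5.01e-12). Psat1 encodes phosphoserine aminotransferase, the second step, which takes its amino group from glutamate. Its level was 170, 163 and 158 CPM in Vector and 65.4, 64.0 and 62.0 CPM in the libraries labelled FTO, with little spread in either group. This gave a log2 change of -1.36 (SE 0.0492, adjusted p = 1.69e-12).

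Psph encodes phosphoserine phosphatase, which releases free serine in the last step. It was at 60.5, 60.6 and 60.8 CPM in Vector and at 37.3, 37.8 and 32.2 CPM in the libraries labelled FTO. The groups were apart, but the decrease was smaller than in the first 2 steps, with a log2 change of -0.77 (SE 0.0675, edgeR adjusted p = 8.64e-08). Within each library the log2 ratio of Psph to Phgdh was -1.88 to -1.78 in Vector and -1.19 to -1.02 in the libraries labelled FTO, 1.62-fold higher in the latter, while that of Psat1 to Phgdh overlapped between the groups. The exact permutation test gave p = 0.1 for Psph to Phgdh, the smallest value that 3 libraries against 3 allow. A difference between Psat1 and Phgdh was not detected (difference of log2 ratios 0.10, exact permutation p = 0.3). The test could not reach 0.05 for either pair.

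The mitochondrial one-carbon genes fell unequally. Shmt2, the mitochondrial serine hydroxymethyltransferase that splits serine into glycine and a one-carbon unit, was at 199, 192 and 195 CPM in Vector and at 139, 137 and 126 CPM in the libraries labelled FTO. This was the smallest decrease among the 9 tested genes, with a log2 change of -0.55 (SE 0.0479, edgeR adjusted p = 8.34e-08). Mthfd2 encodes the mitochondrial dehydrogenase and cyclohydrolase that acts on that unit next and is known for high levels in growing and transformed cells. It was at 129, 133 and 133 CPM in Vector and at 51.6, 49.9 and 46.0 CPM in the libraries labelled FTO. Its decrease was larger than that of Shmt2, with a log2 fold change of -1.42 (SE 0.0542), a 95% interval of -1.54 to -1.31 and an adjusted p-value of 3.14e-12.

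For proline synthesis, the 2 genes differed in what the counts allowed. Pycr1 encodes the mitochondrial pyrroline-5-carboxylate reductase of the last step to proline. It was at 21.1, 25.1 and 21.5 CPM in Vector, from 289 to 374 counts, and at 2.74, 3.55 and 3.02 CPM in the libraries labelled FTO, from 39 to 54 counts. The groups were far apart, and no other gene of the 9 tested fell this far. The log2 fold change was -2.87 (SE 0.131), a level 7.31-fold lower with an edgeR adjusted p of 2.96e-11, and only 1.4% of all genes tested had a lower log2 fold change. Aldh18a1 encodes the synthase of the first steps from glutamate. It had 1 count in Vector replicate 2 and 0 in each of the other 5 libraries, where a floor of 3 counts corresponds to 0.168 to 0.227 CPM. The sources used here do not give the annotation behind the counts, so a gene that was not expressed and a gene whose reads were not assigned to this symbol cannot be told apart. It was therefore not tested, and no fold change is given.

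Asns encodes asparagine synthetase, which uses the amide group of glutamine. It was at 266, 262 and 259 CPM in Vector and at 128, 128 and 129 CPM in the libraries labelled FTO. These were among the tightest values of the 9 genes, and the groups lay far apart. This gave a log2 change of -1.03 (SE 0.0405, edgeR adjusted p = 4.58e-12), and its 95% interval of -1.12 to -0.95 spans the 2-fold threshold of the study.

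Both regulators fell too. Atf4 had the highest counts of the 10 genes and was at 426, 421 and 426 CPM in Vector and at 260, 276 and 246 CPM in the libraries labelled FTO. It fell with a log2 change of -0.70 (SE 0.0453, edgeR adjusted p = 2e-09). Since ATF4 protein is set largely at translation, the mRNA level does not give its activity. Trib3 was at 48.7, 44.7 and 45.2 CPM in Vector and at 9.33, 12.4 and 8.54 CPM in the libraries labelled FTO. Its libraries were well apart, with FTO replicate 2 the highest of its group. It had the second largest decrease after Pycr1, a log2 change of -2.21 (SE 0.106, adjusted p = 5.41e-11). The log2 ratio of Trib3 to Atf4 was -3.22 to -3.12 in Vector and -4.77 to -4.42 in the libraries labelled FTO, so Trib3 fell further than Atf4 in each of them, and that of Asns to Atf4 was lower by a smaller amount, 1.25-fold.

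**Figure D2:**
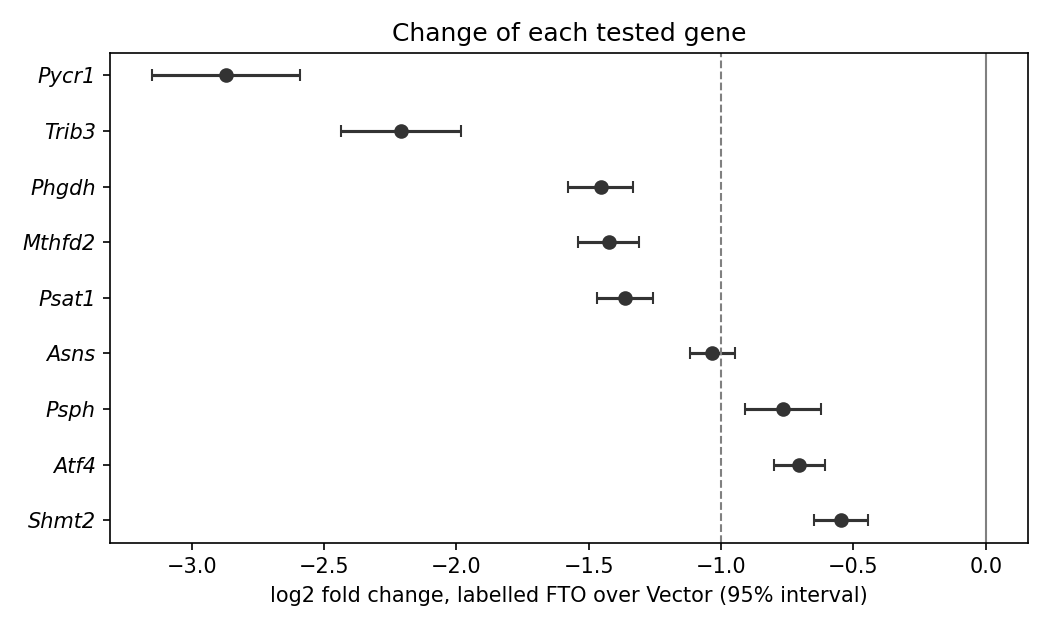
Points show the log2 fold change between groups (FTO-labelled over Vector) for the 9 genes tested, bars its 95% interval from the edgeR fit, and the dashed line the 2-fold decrease. Values run from -2.87 (Pycr1) to -0.55 (Shmt2), and those of Psph, Atf4 and Shmt2 lie above the dashed line.

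In order of decrease, Pycr1 and Trib3 came first and their 95% intervals did not overlap (-3.15 to -2.59 and -2.44 to -1.98). Phgdh, Mthfd2 and Psat1 followed with overlapping intervals between -1.58 and -1.26. Asns stood next, with an interval that met none of its neighbours, since that of Psph ran from -0.91 to -0.62. The intervals of Psph, Atf4 and Shmt2 formed a chain of overlaps. Pycr1 and Trib3 also had the fewest counts among these genes, as 67.2% of tested genes had more counts than Pycr1 and 48.8% more than Trib3. Psph came next in counts, with 33% of tested genes above it, but ranked after Asns in decrease. The share was 10.2% for Phgdh and 3.49% for Atf4. These counts are means over both groups, so a decrease itself lowers them.

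To compare each gene with a partner in the same library, where the library scaling cancels, 10 pairs were examined, mostly isoenzymes or steps that meet at one metabolite. Single genes often lay apart in these data, with separate CPM ranges in 70.3% of those tested. The matching share among other gene pairs was not computed, so the count below has no background of its own. In 9 of the 10 pairs the log2 ratios of the groups did not overlap, the exception being Psat1 to Phgdh. The exact permutation test (two-sided) gave p = 0.1 for each of these 9, which is the smallest value that 3 libraries against 3 allow, and 0.11 after Benjamini-Hochberg adjustment over the 10, so this design could not reach 0.05. All ratios are of CPM and not per length, so their absolute values are not ratios of molecules. Only their differences between groups are read.

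The mitochondrial enzymes fell relative to their cytosolic or alternative counterparts. The log2 ratio of Shmt2 to cytosolic Shmt1 was 3.07 to 3.21 in Vector and 2.38 to 2.68 in the libraries labelled FTO, a difference of -0.58. Shmt1 itself was at 22.0 ± 1.52 and 22.7 ± 2.88 CPM (SD, n = 3 libraries each), with an edgeR adjusted p of 0.734. The ratio of Mthfd2 to Mthfd1, the cytosolic enzyme of the same reactions, was 3.07-fold lower, and Mthfd1 rose by a log2 fold change of 0.21 (adjusted p = 0.00471). The ratio of Mthfd2 to Mthfd2l, its mitochondrial paralogue, was 4.93-fold lower, as Mthfd2l rose from 5.46 ± 0.212 to 10.5 ± 0.606 CPM (adjusted p = 6.46e-06).

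Pycr1 was also set against other proline genes. Pycr3 (listed as Pycrl), a cytosolic reductase for the same step, rose by 0.28 on the log2 scale (adjusted p = 0.00764), a call that was lost without Vector replicate 2 (0.0526). Prodh (listed as Prodh1), proline dehydrogenase, catalyses the first step of proline breakdown. It was at 1.17, 1.34 and 2.08 CPM in Vector and at 11.1, 10.3 and 10.3 CPM in the libraries labelled FTO, a log2 change of 2.78 (SE 0.184, adjusted p = 2.75e-09), with 16 to 30 counts per Vector library. The log2 ratio of the synthesis gene Pycr1 to Prodh went from 3.10 to 3.80 in Vector to between -1.84 and -1.42, a difference of -5.16 with 0.5 CPM added to each gene and of -3.02 with 5 CPM added.

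Glutamine genes were set beside Asns. Glul, which makes glutamine, was at 208 to 220 CPM in Vector and at 618 to 656 CPM in the libraries labelled FTO, a log2 fold change of 1.57 (adjusted p = 4.4e-14). The ratio of Asns to Glul was 6.05-fold lower in the libraries labelled FTO. Aspg, which breaks asparagine down, was at 0.377 ± 0.181 and 1.94 ± 0.387 CPM and rose, though from only 4 to 8 counts per Vector library.

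**Figure D3:**
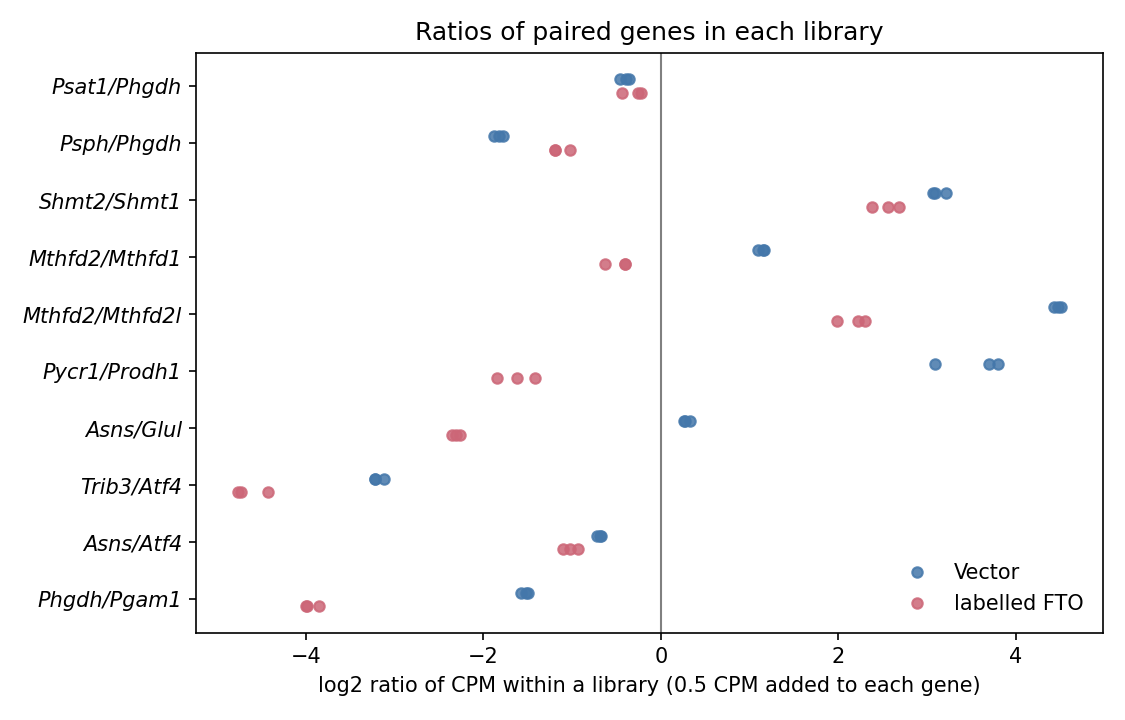
Points show the log2 ratio of CPM of the first to the second named gene in each library, with 0.5 CPM added to each gene, for 3 Vector and 3 FTO-labelled libraries. The groups overlap in Psat1/Phgdh alone, and the widest shift is that of Pycr1/Prodh1, by -5.16.

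At the branch point with glycolysis the directions were opposite. The 5 glycolytic genes around 3-phosphoglycerate all rose, with a median log2 fold change of 0.97. Of all genes tested, 33.2% were called higher. Pgam1, the mutase that competes with Phgdh for 3-phosphoglycerate, rose from 624 to 634 CPM in Vector to between 1189 and 1257 CPM, a log2 change of 0.96 (SE 0.0384, edgeR adjusted p = 5.58e-12). The ratio of Phgdh to Pgam1 was 5.32-fold lower in the libraries labelled FTO. Further down glycolysis Pkm rose 2.55-fold, and Eno1 from 268 to 281 CPM in Vector to between 539 and 562 CPM. Counts of Gapdh, which has many processed copies in the genome, depend on how shared reads were counted.

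The neighbouring genes of the pathways were then described by list. Of 19 other folate one-carbon and glycine genes tested, 6 were higher, 4 lower and 9 were not called, with a median log2 fold change of 0.00. Aldh1l2, the mitochondrial formyltetrahydrofolate dehydrogenase, fell with Mthfd2, from 138 ± 3.08 to 63.4 ± 6.05 CPM (SD, n = 3 libraries each; log2 fold change -1.12, edgeR adjusted p = 3.09e-10). Its cytosolic relative Aldh1l1 rose from between 2.21 and 2.85 CPM to between 30.1 and 32.7 CPM, 12.7-fold (adjusted p = 3.83e-13). Mthfd1l, a further mitochondrial enzyme of the pathway, was at 44.7 ± 2.60 and 42.7 ± 2.04 CPM and did not pass (adjusted p = 0.366). Folr2, a folate receptor known from macrophages, had the largest decrease of the list, a log2 fold change of -2.89.

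Of 11 purine and thymidylate synthesis genes, which use one-carbon units, 4 were higher, 5 lower and 2 not called, and Impdh1, of guanine nucleotide synthesis, had the largest decrease at a log2 fold change of -0.85. The 4 higher ones became 2 without Vector replicate 1, without Vector replicate 3, without FTO replicate 1, or with DESeq2. Of 9 other proline and ornithine genes, 4 were higher, 4 lower and 1 not called, and Oat, which makes pyrroline-5-carboxylate from ornithine, fell by 0.51 on the log2 scale (adjusted p = 5.06e-08). Without Vector replicate 2 the number of higher ones was 2. Of 12 glutamine, glutamate and aspartate genes, 3 were higher, 4 lower and 5 not called, and 5 were higher without Vector replicate 2. On the folate, purine, proline and glutamine lists 52.6%, 81.8%, 88.9% and 58.3% of tested genes were called, beside 65.9% over all genes tested. Each of these lists held calls in both directions.

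The targets of ATF4 were set beside Atf4 and Trib3. Of 26 other ATF4 target genes tested, 20 were lower, 3 higher and 3 not called, with a median log2 fold change of -0.83. Of these 26, 11 passed the threshold of the study as lower. Over all genes tested 32.8% were lower and 9.27% passed that threshold as lower. This list shares genes with the folate, glutamine, eIF2, carrier and stress factor lists, among them Aldh1l2, Gpt2, Ppp1r15a, Atf5, Cebpg and Ddit3. The largest decreases were those of Slc7a3, a carrier of cationic amino acids, and Vldlr, a lipoprotein receptor, with log2 fold changes of -4.04 and -3.43. Chac1, which breaks down glutathione, was at 31.8, 29.6 and 29.8 CPM in Vector and at 4.98, 4.68 and 3.13 CPM in the libraries labelled FTO (log2 fold change -2.86, edgeR adjusted p = 2.5e-11). Herpud1, Slc7a1 and Sesn2 fell by 1.06, 1.06 and 1.16 on the log2 scale. The 3 higher genes were Ddit3, Ddit4 and Stc2, with log2 fold changes of 1.28, 0.34 and 0.27, and the last was lost without FTO replicate 1 (adjusted p = 0.0552).

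Among transcription factors of the stress response, 4 of 9 tested were higher, 3 lower and 2 not called. That is 77.8% called, beside 65.9% of all genes tested. Atf3, Atf5, Cebpg and Ddit3 are also on the list of ATF4 targets. Atf5, a relative of ATF4 under the same translational control, was at 345 to 354 CPM in Vector and at 93.3 to 107 CPM in the libraries labelled FTO (log2 fold change -1.78, edgeR adjusted p = 1.16e-13), and Cebpg, a dimer partner of ATF4, fell by 0.81. Ddit3, which encodes CHOP, a pro-apoptotic factor usually induced along with Trib3 and Chac1, moved the other way, from 31.7 to 33.2 CPM in Vector to between 73.0 and 85.9 CPM (adjusted p = 1.82e-10). Cebpb rose from a Vector group that itself ranged from 21.2 to 65.4 CPM to between 175 and 218 CPM (log2 fold change 2.12, SE 0.223, adjusted p = 6.86e-07). Atf3, with means of 5.86 and 4.63 CPM, did not pass (adjusted p = 0.0724, and 0.0348 without Vector replicate 2).

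The kinases that phosphorylate eIF2 were measured at the mRNA level alone. Of 8 genes on this list, which holds eIF2 kinases, phosphatase genes and Eif2s1, the subunit they act on, 3 were higher, 3 lower and 2 not called. That is 75% called, beside 65.9% of all genes tested. Eif2s1 was 1 of the 3 higher, by 0.12 on the log2 scale (adjusted p = 0.0287), and was not called with DESeq2 (0.0611) or without Vector replicate 2 or 3 or FTO replicate 1 or 2 (0.0702 to 0.138), which left 2 higher genes, both kinases. Eif2ak2, the kinase PKR that double-stranded RNA activates and interferon induces, rose from 54.0 ± 4.06 to 207 ± 2.44 CPM (SD, n = 3 libraries each; log2 fold change 1.94, edgeR adjusted p = 7.72e-14). Eif2ak3, the kinase PERK of the endoplasmic reticulum, fell by 0.40 on the log2 scale (adjusted p = 3.57e-05). Eif2ak4, the kinase GCN2 that senses uncharged tRNA, was at 35.0 ± 1.06 and 33.0 ± 1.94 CPM and did not pass (adjusted p = 0.284).

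Genes that carry or use the same amino acids mostly fell with them. All 9 tested carriers of serine, glycine, proline, asparagine and glutamine were lower, beside 32.8% of all genes tested. Their median log2 fold change was -0.72, and 3 of them (Slc1a4, Slc38a2 and Slc6a9) are also on the list of ATF4 targets. Slc1a4, an exchanger of serine and other small neutral amino acids, had the largest decrease of these, from 199 ± 2.02 to 59.9 ± 3.79 CPM (SD, n = 3 libraries each; log2 fold change -1.74, edgeR adjusted p = 1.55e-13). Sfxn1, the mitochondrial serine carrier counted among the folate genes, rose by 0.72 on the log2 scale (adjusted p = 1e-09). Of the 7 tRNA synthetases for serine, glycine, proline and asparagine, the 4 cytosolic ones were lower, with log2 fold changes for Eprs at -1.15, Gars at -0.92, Sars at -0.83 and Nars at -0.71, while the mitochondrial Sars2 and Pars2 were higher (0.68 and 0.58) and Nars2 lower (-0.62).

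The collagen chains, which draw on glycine and proline, were lower as well. All 9 chains on the list were lower, beside 32.8% of all genes tested. Their median log2 fold change was -1.08, with a range from -3.86 (Col6a3) to -0.46 (Col6a2). Col1a1 and Col3a1 had log2 fold changes of -1.64 and -1.68. The libraries hold mRNA only, so neither the amounts of these amino acids nor their synthesis was measured.

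**Figure D4:**
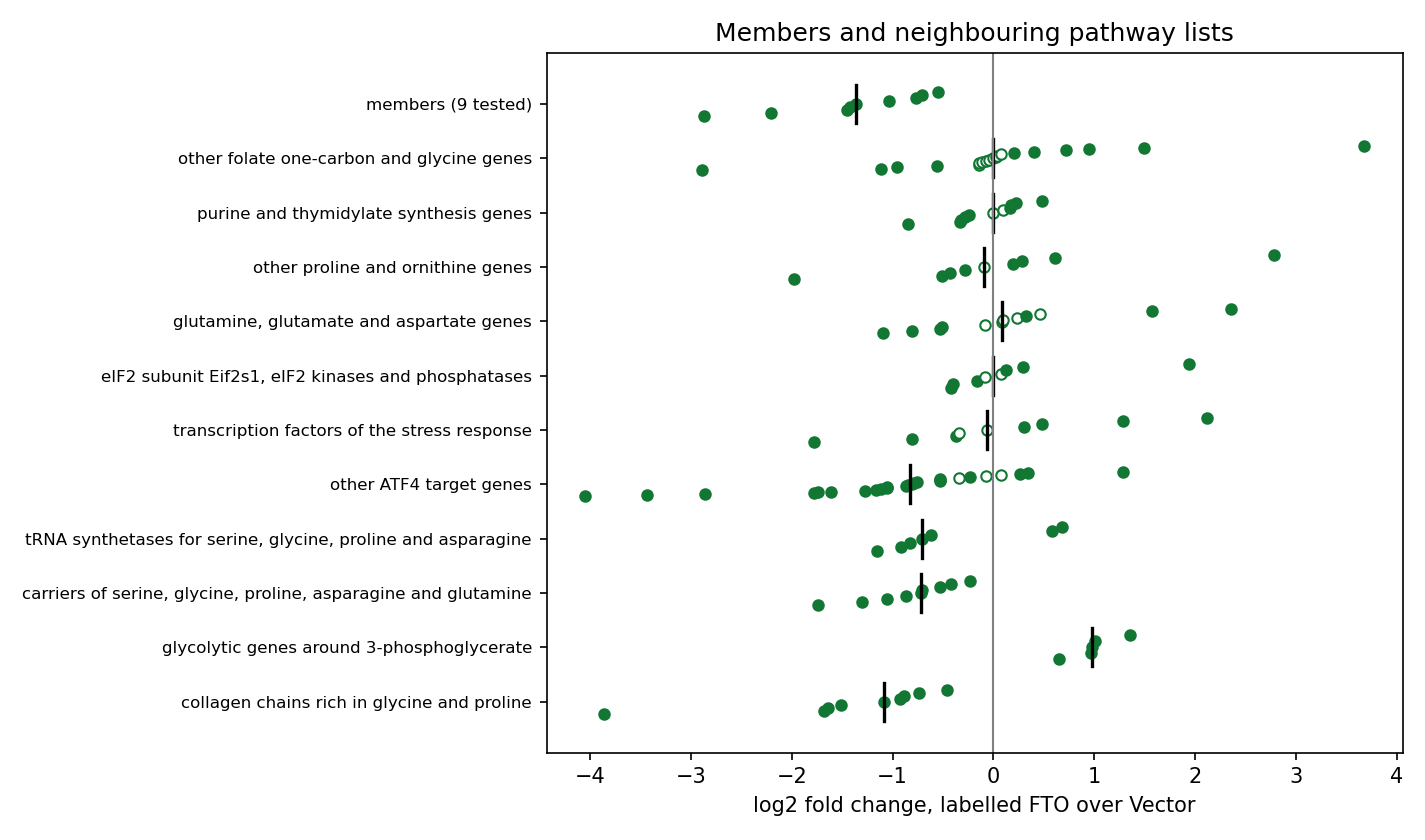
Points show the log2 fold change between groups (FTO-labelled over Vector) for each tested gene, by list, filled where the adjusted p-value was under 0.05, and black bars mark list medians. The 9 genes, carriers and collagen chains lie wholly under 0, the 5 glycolytic genes wholly above it, and folate, purine and proline neighbours on both sides.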

How the data were processed

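RNA-seq of NRCFs (6 libraries) was analysed from raw counts, whole numbers per gene symbol that the authors deposited in 1 file per library. Libraries were made from total RNA with an NEBNext Ultra kit. The submitters' processing notes name Trimmomatic and the rat build rn6, and the aligner, counter, annotation and strand setting are not given in the sources used here, which leaves genes that share reads with copies or overlapping neighbours uncertain.

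Genes were kept with filterByExpr (minimum count 10), which left 12941 genes holding at least 99.9% of the counts of each library. Libraries were scaled by TMM and compared by the two-sided quasi-likelihood test of edgeR 4.0.16 in R 4.3.3 with no covariate, adjusted by Benjamini-Hochberg over all genes tested. SE is the log2 fold change divided by the root of F. Ratios were compared by the exact permutation test. Intervals cover counting error and replicate spread only, as reads carried no molecular identifiers. The fit was tested on simulated data.

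The genes, lists, pairs and tests were chosen with earlier results of these data known. Named beyond the 10 genes and Fto are the genes of the pairs, isoenzymes, Col1a1, Col3a1, Eprs, 6 stress factors, and on each list the 2 highest and 2 lowest called genes with no overlap and at least 100 counts on average. Other genes, such as Aspg, Sfxn1, Herpud1, Slc7a1, Sesn2, Stc2, Eif2s1, Eif2ak4, Sars, Nars, Nars2, Col6a2 and the markers, were chosen after seeing their values. The alternatives comprised DESeq2 1.42.0, limma-voom (limma 3.58.1), other scalings, no filter, the replicate number as a block, another prior for ratios, and leaving out each library. A planned share of residues encoded by the mRNA was not run, as no protein table was used here. Some genes that the rule names and 1 planned pair are not reported here. Aldh4a1, Pepd, Pfas, Slc6a20 and Ttn are not analysed here.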

Additional observations from a re-analysis of the deposited data

How the results depend on the processing

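The 9 tested genes stayed lower with an adjusted p-value under 0.05, and 6 stayed past the threshold of the study, under each of 12 alternatives, DESeq2, limma-voom, both other scalings, no filter, the replicate block and the 6 fits without single libraries. Over these the log2 fold change ran from -2.96 to -2.79 for Pycr1 and from -0.58 to -0.50 for Shmt2. Replicate numbers did not pair the libraries (correlations of deviations 0.004, -0.079 and 0.035), and with the replicate block 92 of 113 list genes passed, as without it. Higher purine and thymidylate genes numbered 4, and 2 with DESeq2, where Tyms and Prps1 did not pass. Without single libraries they ran from 2 to 4, those of the proline and ornithine list from 2 to 4 and those of the glutamine list from 3 to 5. Of 123 genes followed, 16 changed a call or sign. Signs turned only in genes not called. Atic, at -0.0014, was 0.0004 with limma-voom and 0.0066 with library size alone, and Gcsh, at -0.0046, was 0.0036 with library size alone. Without single libraries the ranges were -0.0415 to 0.0482 (Atic), -0.0761 to 0.0311 (Gcsh), -0.0294 to 0.0705 (Mtfmt), -0.0614 to 0.0975 (Shmt1), -0.148 to 0.0197 (Amt) and -0.205 to 0.0465 (Arg2). The cause was not tested. Pairs kept their direction with a prior of 5 CPM and without single libraries. Aldh18a1, at 1 count in all, could not be tested.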
